A study of Mus musculus with 18 samples.

Results

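The cytosolic ribosomal protein genes were read across sorted spleen T cells of mice that do or do not carry CD28, the costimulatory receptor of T cells. The genes were chosen by symbol alone, as those beginning Rpl or Rps with a number, with the endings a, x, l or l1 allowed, plus Rplp0, Rplp1, Rplp2 and Rpsa. The rule took 83 of 26665 listed genes, 51 of the large ribosomal subunit and 32 of the small one. Of these, 81 reached 1 FPKM in no fewer than 3 of the 18 libraries and entered the tests, among 12265 genes tested. FPKM is fragments per kilobase of transcript, scaled to the library's mapped reads, so levels of different genes are per length and can be set side by side.

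There were 6 groups of 3 libraries, named CD28KO tTreg, WT tTreg, CD28KO pTreg, WT pTreg, CD28KO Tconv and WT Tconv in the labels. CD28KO libraries came from CD28-/- Foxp3EGFP mice and WT libraries from Foxp3EGFP mice, all C57BL/6, so a reporter of Foxp3, the lineage factor of regulatory T cells (Treg), was common to every group. The study calls Treg that carry the surface receptor Nrp1 tTreg and those that lack it pTreg; Tconv are conventional T cells. CD28 was absent from the germline and so from all cells and not only from the sorted ones. The age of the mice and whether the libraries of a group came from separate mice are not given in the sources used here, so p-values reflect how far these libraries vary, which may be technical.

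Each cytosolic ribosome holds 1 copy of nearly every ribosomal protein, and their genes are transcribed at closely matched levels in most cells. Many of their mRNAs begin with a C followed by a run of pyrimidines, the terminal oligopyrimidine tract, through which the kinase complex mTORC1 and the RNA-binding protein LARP1 control their translation and stability. CD28 signals reach mTORC1 through PI3K and AKT in activated T cells. A few ribosomal proteins have paralogs with narrower expression: Rpl3l in heart and skeletal muscle, Rpl10l and Rpl39l in testis, Rpl22l1, which Rpl22 represses, and Rps27l, which p53 induces. In mice, Rpl22 is needed for the development of alpha-beta T cells.

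The start of the transcript is where the pyrimidine tract lies, so the first sequences shown are windows of 30 bases, 15 before and 15 from the annotated start, 5′ to 3′ on the transcribed strand. They are RefSeq promoter sequences on GRCm38.p6. The most abundant member is Rps27 (chr3:90213634-90213663, minus strand). Rpl14 (chr9:120571502-120571531, plus) and Rpl31 (chr1:39367836-39367865, plus) are among the called members. Rpl15 (chr14:18270972-18271001, minus) and Rpl28 (chr7:4792950-4792979, plus) are among those that vary most about the others. Rpl22l1 (chr3:28805493-28805522, plus) is a paralog of Rpl22, and Rpl7l1 (chr17:46782642-46782671, minus) a paralog of Rpl7. Capitals mark any of 5 short pyrimidine words, which may overlap each other and were looked for on the transcribed strand: CTTTC and its variant CTTTT, then the word CTTCC and its variant CTTCT, and lastly CTCTT.
Rps27: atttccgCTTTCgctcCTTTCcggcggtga
Rpl14: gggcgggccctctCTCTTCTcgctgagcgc
Rpl31: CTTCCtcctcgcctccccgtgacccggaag
Rpl15: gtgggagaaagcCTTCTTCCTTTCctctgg
Rpl28: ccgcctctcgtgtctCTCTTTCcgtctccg
Rpl22l1: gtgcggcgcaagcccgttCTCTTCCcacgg
Rpl7l1: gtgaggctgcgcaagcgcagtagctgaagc
One of these words stood in the window in 34 of the 63 members that the table holds (54.0%), against 20.8% of its 27025 genes. Among the paralogs, Rpl7l1, Rps27l, Rpl10l and Rpl3l had none in the window, whereas Rpl22l1 and Rpl39l had one. The word CCGGAAG, searched on both strands from 250 bases before to 50 after the start, was in 41.3% of the 63 members and in 9.93% of all genes. AAGATGGC, searched the same way, was in 9.52% of the members and in 3.19% of all genes, and TATAAA was in 11.1% of the members and in 15.7% of all genes. These matches describe letters and are not binding sites.

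The sort and the libraries were checked first. Foxp3 had 56.0 to 137 FPKM in the 12 Treg libraries and 0.0670 to 0.285 FPKM in the Tconv libraries except CD28KO Tconv 3, which had 21.1. Nrp1 had 55.6 to 83.5 FPKM in tTreg and 0.449 to 0.911 FPKM in pTreg. The whole-gene level of Cd28 does not show the mutation: it was 54.1 to 117 FPKM in the CD28KO libraries and 31.5 to 82.8 FPKM in the WT libraries. Mir5105, a small RNA gene, took 26.9% of the FPKM sum in CD28KO Tconv 3, 20.8% in WT pTreg 1 and 19.4% in WT Tconv 1, and 2.98% to 11.6% elsewhere. WT Tconv 1 also had the largest FPKM sum of the 18 libraries and 86.2 FPKM of the heat shock gene Hspa1a, which had 2.25 to 36.9 FPKM in the others. Results that rest on these 3 libraries are given with and without them; what sets these libraries apart was not tested.

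Ribosomal protein mRNAs were among the most abundant in all groups. They were 29 of the 50 genes with the highest mean FPKM and 57 of the top 100. The mean over 18 libraries was above 1000 FPKM in 55 members, between 100 and 1000 in 23, and below 100 in 3 of the tested ones. Rps27, a small-subunit protein, was first with 6504 FPKM, followed by Rplp1, an acidic protein of the ribosomal stalk that recruits elongation factors, with 5612. Next came Rps29 with 4175, Rps28 with 3749.5, the second stalk protein Rplp2 with 3572 and Rps16 with 3278 FPKM. The 4 lowest tested members were Rps15a with 178 FPKM and the paralogs Rps27l with 54.2, Rpl7l1 with 24.2 and Rpl39l with 0.838. Rpl10l and Rpl3l failed the filter: they had at most 0.102 and 0.171 FPKM in any library, and most libraries list them at 0.

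Rps27 had 5167, 5426 and 4877 FPKM in CD28KO tTreg and 6096, 5331 and 4834 in WT tTreg. In pTreg its levels were 7932, 7799 and 6433 FPKM in CD28KO mice and 5097, 7278 and 7006 in WT mice. In Tconv they were 6507, 6686 and 5153 FPKM in CD28KO mice and 12628, 6837 and 5978 in WT mice. WT Tconv 1 thus stood far above its group for this gene, and CD28KO tTreg lay below CD28KO pTreg with no overlap. Testis-type Rpl39l showed no such order, with values from 0.240 to 1.69 FPKM spread over all groups.

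As a share of the FPKM sum without Mir5105, the 83 genes made up 20.5% to 31.4% of each library. CD28KO tTreg had 20.7%, 21.6% and 20.5% and WT tTreg had 24.1%, 22.1% and 20.9%. CD28KO pTreg had 26.9%, 25.8% and 23.7% and WT pTreg had 27.5%, 25.8% and 24.1%. CD28KO Tconv had 25.2%, 24.1% and 22.4% and WT Tconv had 31.4%, 24.5% and 23.4%. The 3 libraries of CD28KO tTreg lay below all libraries of CD28KO pTreg and CD28KO Tconv, whereas the CD28KO and WT groups overlapped in all 3 populations. In WT mice tTreg and pTreg overlapped, since WT tTreg 1 and WT pTreg 3 were alike. The order of the group means was CD28KO tTreg (20.9% ± 0.581), WT tTreg (22.4% ± 1.60), CD28KO Tconv (23.9% ± 1.38), CD28KO pTreg (25.4% ± 1.63), WT pTreg (25.8% ± 1.70) and WT Tconv (26.5% ± 4.32, SD, n = 3 each). Each neighbour in this order differed from the next by less than the larger of their SDs. The sum of the large subunit was 1.06 to 1.16 times that of the small subunit in all 18 libraries. In bulk RNA such a share cannot tell less ribosomal protein mRNA in each cell from more of other RNA.

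**Figure D1:**
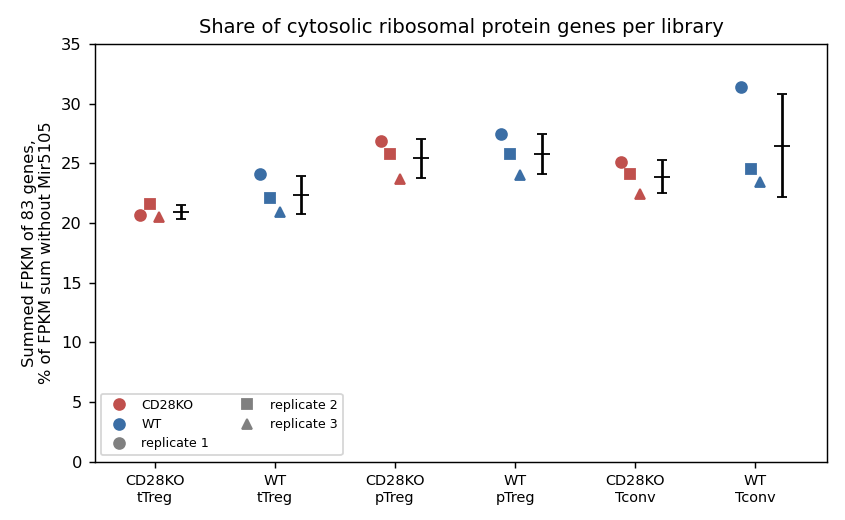
Summed FPKM of the 83 ribosomal protein genes as percent of each library's FPKM sum without Mir5105, by group; points are libraries (shape gives the replicate number) and bars give the mean and SD of 3 libraries. The CD28KO tTreg libraries lie at 20.5% to 21.6%, below the CD28KO pTreg libraries at 23.7% to 26.9%, and WT Tconv 1 stands alone at 31.4%.

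The members moved together from library to library. The correlation of each tested member with the median of the others, over 18 libraries of log2(FPKM + 1), had a median of 0.93, and it was above 0.9 in 54 of 81 members. Among the 12184 other genes tested, the median correlation with the member median was 0.13, and 138 genes were above 0.9. These are descriptions, since all genes of a library share its RNA and scaling. The SD of a member over the 18 libraries had a median of 0.32 on the log2 scale, which dropped to 0.12 once the per-library member median was subtracted. The genes outside the rule most like the member median were Gm13654 (r = 0.98), Gm5428 (0.97), Rpl36al (0.97), Gm9794 (0.96), LOC100861805 (0.96), Tpst2 (0.96), Gm5075 (0.96) and Gm10045 (0.96). RefSeq lists Gm9794, Gm5075 and Gm10045 as pseudogenes. Ribosomal protein genes have many processed pseudogenes, so levels of single members carry an uncertainty from how reads were divided, which was not tested.

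**Figure D2:**
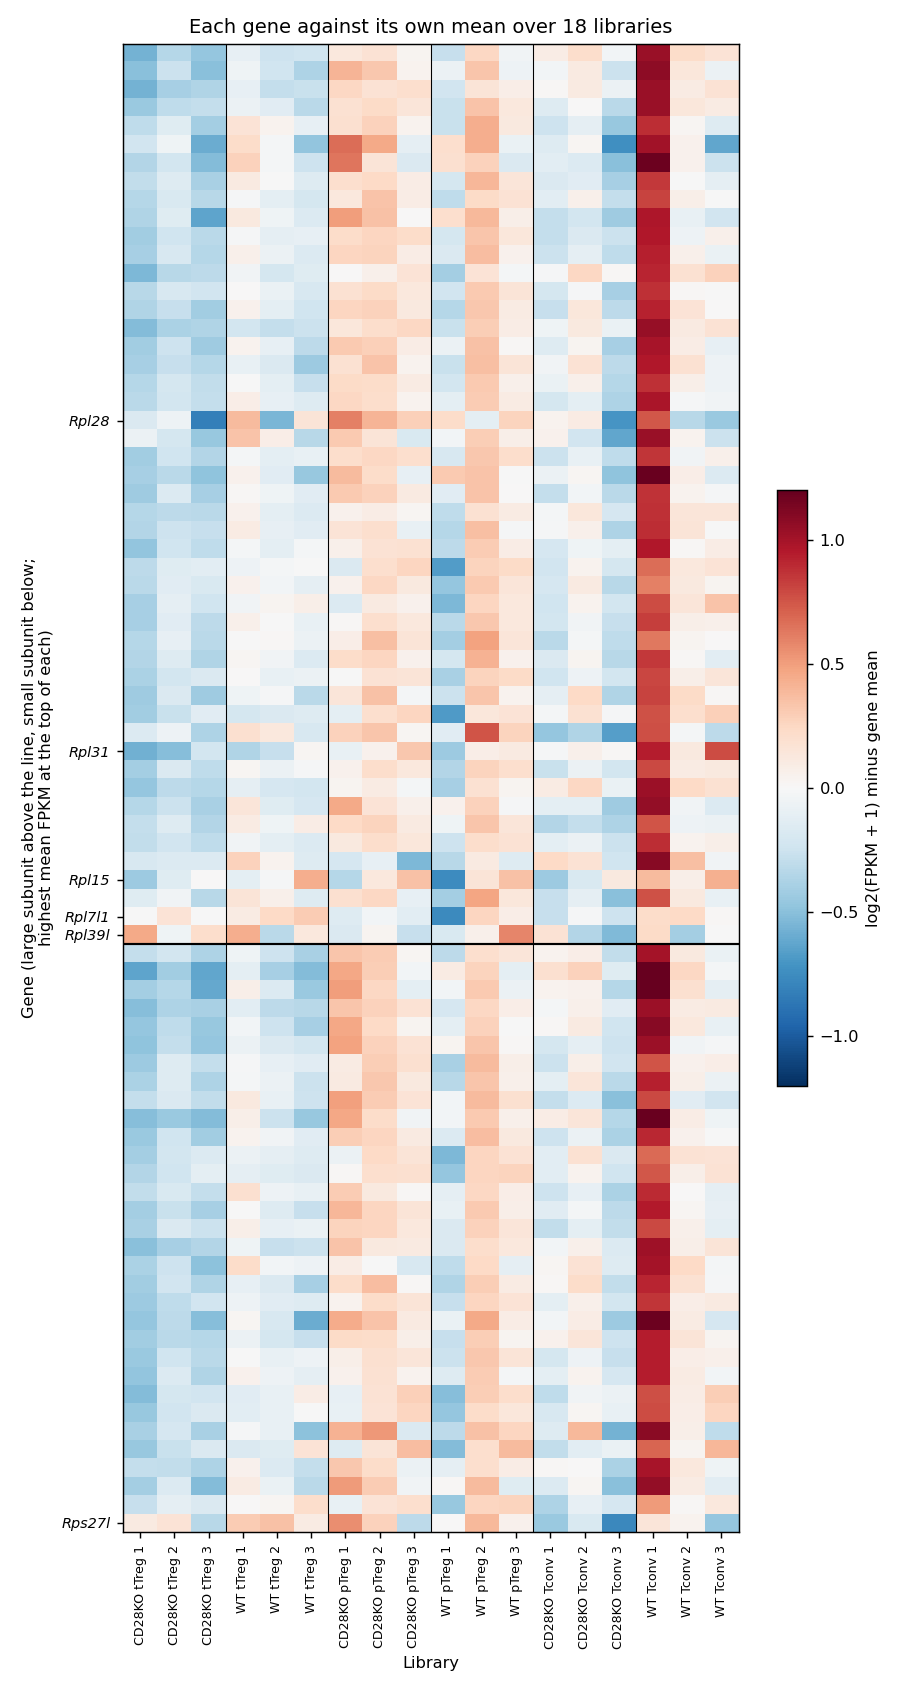
Log2(FPKM + 1) of each of the 81 tested members minus its own mean over 18 libraries (red above, blue below), with libraries in columns, the large subunit above the small one, and names given for the 6 members with the largest SD about the member median. Columns are nearly uniform: CD28KO tTreg is blue and WT Tconv 1 is red in nearly all members, while Rpl15, Rpl28, Rpl31, Rpl39l, Rpl7l1 and Rps27l depart most from their columns, with SDs about the member median of 0.29 to 0.43.

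No member passed the test for the loss of CD28 in any of the 3 populations, which does not show that the levels were alike. By limma with Benjamini-Hochberg adjustment over 12265 genes, 0 of 81 members were called in CD28KO against WT tTreg, where 0.204% of all genes were called, and 0 members had an unadjusted p under 0.05. In pTreg 0 members were called, against 0.204% of all genes, with 0 at an unadjusted p under 0.05. In Tconv 0 members were called, against 0.791% of all genes, but 32 had an unadjusted p under 0.05, as did 1185 of the 12265 genes. The median member difference was -0.23 on the log2 scale in tTreg, where the median of all genes was -0.05, 0.12 in pTreg (all genes 0.19) and -0.46 in Tconv (all genes -0.16). The pTreg median turned to -0.033 without WT pTreg 1, -0.033 rescaled without Mir5105 and -0.010 with quantile normalization, and was 0.25 without WT pTreg 2; the members below 0 were 5 in the fit of all libraries, 51 without the 3 libraries and 58 rescaled. In tTreg 44 members had all CD28KO libraries below all WT libraries, against 15.1% of all genes. As members move together, these are not 44 separate results. Rescaled without Mir5105, 15 members did so and the tTreg median was -0.10 (all genes 0.07). With quantile normalization 11 did so and the tTreg median was -0.055 (all genes 0.005). The share of all genes without overlap is not given for these fits, so the 15 and the 11 cannot be set against it. In the deposited FPKM of Tconv, 35 members had all CD28KO libraries below all WT libraries, against 18.2% of all genes. But the Tconv median shrank to -0.18 without WT Tconv 1 and to -0.11 without the 3 libraries with the most Mir5105. The differences of the CD28 effect between populations gave 0 called members in all 3 tests by limma, with 0 members at an unadjusted p under 0.05 for pTreg minus tTreg, 0 for tTreg minus Tconv and 10 for pTreg minus Tconv. These 3 tests called 0.0245%, 0.122% and 0.0734% of all genes. For pTreg minus Tconv, 1073 of the 12265 genes had an unadjusted p under 0.05.

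In the deposited FPKM, the comparison with the most members free of overlap was that between the Treg subsets of CD28KO mice. Of the 81 members, 78 had a lower mean in CD28KO tTreg than in CD28KO pTreg and 71 were lower with no overlap of libraries, against 21.5% of all genes. The median difference was -0.47, and that of all genes was -0.03. In CD28KO against WT Tconv the member median was nearly as large, at -0.46. Rescaled without Mir5105, the median between the CD28KO Treg subsets was -0.22 (all genes 0.20), and 48 members were lower with no overlap. The share of all genes without overlap is not given for that fit. With quantile normalization the median between the CD28KO Treg subsets was -0.094, against -0.11 in CD28KO against WT Tconv. Rps16 had 2227, 2450.0 and 2429 FPKM in CD28KO tTreg, against 3990.0, 3836 and 3589 FPKM in CD28KO pTreg. Rps29 had 2553, 2969 and 2586 FPKM in CD28KO tTreg, against 5488, 4869 and 3890.0 FPKM in CD28KO pTreg. Both genes were thus lower in every CD28KO tTreg library, by -0.68 ± 0.22 and -0.80 ± 0.26 (SE). In the fit of all 18 libraries 0 members were called by limma (4.08% of all genes were), the lowest adjusted p being 0.118. An unadjusted p under 0.05 was reached by 41 members and by 1628 of the 12265 genes.

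That call depends on libraries outside the comparison, since all groups share 1 estimate of the spread. Without WT Tconv 1, 25 members were called lower in CD28KO tTreg, a fit for which the share of all genes called was not taken. Without the 3 libraries with the most Mir5105, 64 were called lower and 0 higher, where 9.35% of all genes were called lower; the 6 libraries compared and their differences are the same in that fit. There the difference of Rps16 had a SE of 0.0924 (adjusted p = 0.000415, limma) and that of Rps29 a SE of 0.158 (adjusted p = 0.00529, limma). With the replicate number as a block, Rps29 alone was called lower (adjusted p = 0.0437, limma), where 1.87% of all genes were called lower. The same contrast in WT mice gave a median of -0.14 (all genes 0.19), with 0 members called by limma, 0 at an unadjusted p under 0.05, and 4.93% of all genes called. That median was -0.30 without WT pTreg 1 and -0.024 without WT pTreg 2. Without the 3 libraries, 6 members (Rpl13a, Rpl21, Rpl26, Rpl8, Rps16 and Rps3a) were called lower in WT tTreg, against 2.91% of all genes.

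Between WT tTreg and WT Tconv 3 members were called, all of the large subunit and all lower in tTreg, against 4.26% of all genes called lower. Rpl31 had 541, 576 and 707 FPKM in WT tTreg, against 1338, 758 and 1198 FPKM in WT Tconv, a difference of -0.82 ± 0.22 on the log2 scale (SE, n = 3 each; adjusted p = 0.0168, limma). Rpl8, a protein near the catalytic centre of the large subunit, had 1426, 1369 and 1394 FPKM in WT tTreg, against 3429, 1794 and 1882 FPKM in WT Tconv (-0.70 ± 0.22, adjusted p = 0.0429, limma). Rpl14 had 607, 568 and 563 FPKM in WT tTreg, against 1337, 772 and 742 FPKM in WT Tconv (-0.66 ± 0.21, adjusted p = 0.0467, limma). None of these groups overlap. Without WT Tconv 1 the differences were -0.66, -0.40 and -0.39 for Rpl31, Rpl8 and Rpl14, and none was called. Without the 3 libraries, which include WT Tconv 1, these differences were the same and all 3 were called (adjusted p = 0.0301 for Rpl31, 0.0120 for Rpl8 and 0.00864 for Rpl14, limma). With the replicate block Rps29 joined them (-0.82 ± 0.22, adjusted p = 0.0167, limma), where 6.29% of all genes were called lower. With 3 called members of 81 the share was near that of all genes.

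The other comparisons with Tconv called 0 members by limma. CD28KO tTreg against CD28KO Tconv had 5 members at an unadjusted p under 0.05 and a median difference of -0.16 (all genes 0.09), with 12.1% of all genes called; the median was -0.076 without CD28KO Tconv 2, -0.23 without CD28KO Tconv 3 and 0.0026 with quantile normalization. WT pTreg against WT Tconv had 7 such members and a median of -0.29 (all genes -0.21), with 4.49% of all genes called. CD28KO pTreg against CD28KO Tconv had 9 such members and a median of 0.30 (all genes 0.14), with 5.85% of all genes called, and 39 members lay above with no overlap, against 26.4% of all genes. Of the 12265 genes, 2390, 1993 and 2013 had an unadjusted p under 0.05 in these 3 comparisons. With the replicate block, Rps27l was called higher in CD28KO pTreg than in CD28KO Tconv (0.64 ± 0.16, adjusted p = 0.0154, limma), where 7.57% of all genes were called higher. Without the 3 libraries, 14 members were called lower in CD28KO tTreg than in CD28KO Tconv (5.32% of all genes), 11 higher in CD28KO pTreg than in CD28KO Tconv (15% of all genes), 8 lower in WT tTreg than in WT Tconv (7.23% of all genes) and Rpl24 higher in WT pTreg than in WT Tconv (6.2% of all genes). CD28KO Tconv 3, one of the 3, also carried Treg transcripts: the summed Treg markers reached 106 FPKM in that group, against 3.79 FPKM in its lowest library. Of 6 B cell markers, 2 reached the filter and only Cd79b was called, higher in tTreg and in pTreg than in Tconv in both genotypes. It averaged 9.88 FPKM in WT tTreg, 4.62 in CD28KO tTreg, 4.58 in WT pTreg, 3.32 in CD28KO pTreg, 0.923 in CD28KO Tconv and 0.626 in WT Tconv. The sum of the 6 markers was 5.54 to 6.1 FPKM in CD28KO tTreg, 10.6 to 12.3 in WT tTreg, 4.29 to 6.35 in CD28KO pTreg, 4.83 to 7.6 in WT pTreg, 0.974 to 3.22 in CD28KO Tconv and 1.37 to 1.93 in WT Tconv. Summed myeloid markers, with 7 of 8 reaching the filter, were 71.0 to 105 FPKM in CD28KO tTreg, 88.7 to 102 in WT tTreg, 97.8 to 134 in CD28KO pTreg, 68.1 to 147 in WT pTreg, 58.7 to 62.2 in CD28KO Tconv and 79.4 to 110 in WT Tconv; 2 of the 7 were called higher and 1 lower in CD28KO pTreg against CD28KO Tconv, and 1 lower in CD28KO tTreg against CD28KO pTreg. Of the plasma cell markers, 2 of 2 tested were called higher in WT tTreg than in WT Tconv, with sums of 33.8 to 37.5 FPKM in WT tTreg and 19.3 to 25.3 in WT Tconv. Of the NK cell markers, 1 of 2 tested was called lower there, with sums of 2.11 to 2.29 FPKM in WT tTreg and 3.36 to 6.56 in WT Tconv. Klrb1c, an NK cell marker, was called lower in pTreg than in Tconv in both genotypes and higher in WT tTreg than in WT pTreg. The CD8 T cell marker Cd8b1 was called lower in CD28KO tTreg than in CD28KO Tconv (-0.79). Cd4 was called lower in WT tTreg (-0.67) and in WT pTreg (-0.81) than in WT Tconv. Of the myeloid markers, 2 were called lower in WT tTreg than in WT Tconv. In CD28KO tTreg against CD28KO Tconv 1 was called higher and 2 lower. The part of these cell types in the results was not tested.

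**Figure D3:**
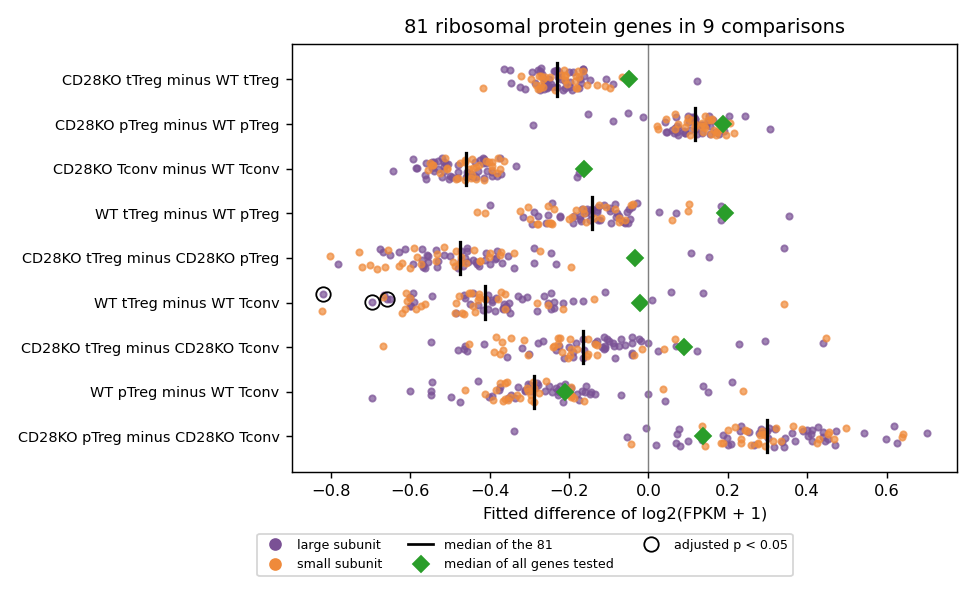
Fitted difference of log2(FPKM + 1) for each of the 81 members in 9 comparisons, with the first-named group minus the second; bars mark the member median, diamonds the median of all 12265 genes, and circles the 3 members called. The members cluster tightly around their median, which lies at -0.47 in CD28KO tTreg minus CD28KO pTreg and at 0.30 in CD28KO pTreg minus CD28KO Tconv.

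Since the set moves as a block, single members were also tested after the member median of each library was subtracted, a fit added after the values were seen. A gene called there moved otherwise than the member median. This can also arise where the set shifts and the gene itself moves little. For CD28KO against WT 0 members were called in all 3 populations, without and with the replicate block, against 0.00815%, 0.0734% and 0.0978% of all genes without it in tTreg, pTreg and Tconv. In tTreg against Tconv 9 members were called in CD28KO mice and 6 in WT mice, and all 6 were among the 9. Among these were Rpl24, Rpl32, Rpl34, Rpl37 and Rps27l, all higher in tTreg relative to the other members. The background of this fit is high, since the shift of the set moves other genes too: 13.5% of all genes were called higher in CD28KO mice and 18.3% in WT mice, and the members' share was below that. The libraries of the 2 genotypes are separate. Across the 81 members the relative difference in CD28KO mice and that in WT mice had r = 0.91 and the same sign in 72, a description over genes that are not independent replicates.

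Rpl24, a large-subunit protein whose mutation causes the Belly spot and tail phenotype in mice, had the largest relative difference of the called members after Rps27l in both genotypes. It had 654, 702 and 567 FPKM in CD28KO tTreg, against 532, 572 and 464 FPKM in CD28KO Tconv. In WT mice it had 837, 799 and 640.3 FPKM in tTreg, against 1258, 723 and 591 FPKM in Tconv. As a level, then, its groups overlap; relative to the member median of each library it was higher in tTreg by 0.54 ± 0.11 in CD28KO mice (adjusted p = 0.00248, limma) and by 0.36 ± 0.11 in WT mice (adjusted p = 0.0274, limma), and on that scale the groups did not overlap. Rplp1 and Rps29 were relatively lower in CD28KO tTreg, by -0.30 ± 0.07 and -0.42 ± 0.12 (adjusted p = 0.00622 and 0.0311, limma), where 1.08% of all genes were called lower.

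With the replicate block these relative calls grew in number. In tTreg against Tconv, 17 members were called higher in CD28KO mice and 17 in WT mice, 14 of them in both, against 28.1% and 42.3% of all genes. The 14 include Rpl39l, at 0.240 to 1.69 FPKM, a level at which log2(FPKM + 1) moves little, so its relative value largely follows the member median. Relatively lower were 7 members in CD28KO mice and 7 in WT mice, against 1.99% and 2.15% of all genes, and 5 were the same: Rpl12, Rpl14 and Rpl8 of the large subunit, Rplp1 of the stalk, and Rps29. In pTreg against Tconv, Rpl24 and Rpl38 were relatively higher in both genotypes, against 2.72% of all genes in CD28KO mice and 4.73% in WT mice. Rpl14, Rpl22l1, Rplp0 and Rplp1 were relatively lower in both, against 2.49% and 1.71%. Rplp0 anchors the stalk to which Rplp1 and Rplp2 bind. By the rule used here, the numbers do not pair WT pTreg with WT Tconv. Without the block, Rpl24 and Rpl38 were not called in WT mice and 0 WT members were called relatively lower. In tTreg against pTreg, Rpl15, Rpl22l1, Rpl3, Rpl4, Rpl7l1, Rps12 and Rps15a were relatively higher in both, against 47.7% and 26.8% of all genes, shares above that of the members. Without the block, that contrast called only Rpl22l1 in CD28KO mice (0.63 ± 0.11, adjusted p = 0.00320, limma; 8.04% of all genes higher) and Rps12 in WT mice (0.31 ± 0.08, adjusted p = 0.0360, limma; 3.99%). In CD28KO pTreg against CD28KO Tconv it called Rpl24 as higher (1.3% of all genes higher) and Rpl14, Rpl22l1 and Rps12 as lower (1.1% lower). Without the block, relative calls in tTreg against Tconv moved with single libraries. The share of all genes called was not taken in these fits, so their counts have no background beside them. The WT calls were 0 without WT tTreg 2, 1 without WT Tconv 1, 3 without WT tTreg 1 and 8 without CD28KO Tconv 3 or WT Tconv 3. The CD28KO calls were 3 without CD28KO tTreg 1 or 2 or CD28KO Tconv 1 or 2, and 14 and 15 without CD28KO Tconv 3 or WT Tconv 1.

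The paralog pairs give ratios within a library, which do not depend on its scaling. Rpl22l1 as percent of Rpl22 was lowest in pTreg and highest in Tconv, with 163%, 154% and 189% in CD28KO tTreg, 183%, 166% and 169% in WT tTreg, 128%, 132% and 123.2% in CD28KO pTreg, 177%, 129.6% and 137% in WT pTreg, 241%, 204% and 202% in CD28KO Tconv and 211%, 199% and 174% in WT Tconv. Over both genotypes the ratio was 1.24 times as high in tTreg as in pTreg (0.31 on the log2 scale, exact permutation p = 0.015, adjusted p = 0.03). It was 0.833 times that of Tconv in tTreg (exact permutation p = 0.01, adjusted p = 0.024) and 0.670 times that of Tconv in pTreg (exact permutation p = 0.01, adjusted p = 0.024). The p-values are two-sided, from all 400 exchanges of libraries within genotypes, which can give 0.005 at the smallest, and are adjusted over 12 such tests added after the values were seen. The exchanges do not keep replicate numbers together, and the ratios were not tested with the replicate block.

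Rps27l was about 1 percent of Rps27, and this ratio was highest in tTreg, then pTreg, and lowest in Tconv. The percentages were 1.02 ± 0.139 in CD28KO tTreg, 1.17 ± 0.0994 in WT tTreg, 0.822 ± 0.163 in CD28KO pTreg, 0.925 ± 0.131 in WT pTreg, 0.626 ± 0.0603 in CD28KO Tconv and 0.633 ± 0.166 in WT Tconv (SD, n = 3 each). The ratio was 1.75 times as high in tTreg as in Tconv (exact permutation p = 0.005, adjusted p = 0.024), with all 6 tTreg libraries above all 6 Tconv libraries. It was 1.39 times as high in pTreg as in Tconv (exact permutation p = 0.02, adjusted p = 0.0343) and 1.26 times as high in tTreg as in pTreg (exact permutation p = 0.025, adjusted p = 0.0375). Rpl7l1, a nucleolar relative of Rpl7 that works in ribosome assembly, was 2.90 ± 0.155 percent of Rpl7 in CD28KO tTreg and 2.87 ± 0.372 in WT tTreg. It was 2.03 ± 0.0480 percent in CD28KO pTreg, 2.17 ± 0.234 in WT pTreg, 2.34 ± 0.165 in CD28KO Tconv and 2.28 ± 0.397 in WT Tconv. Its ratio was 1.37 times as high in tTreg as in pTreg (exact permutation p = 0.005, adjusted p = 0.024) and 1.25 times as high in tTreg as in Tconv (exact permutation p = 0.01, adjusted p = 0.024), while the ratio in pTreg was 0.913 times that in Tconv (exact permutation p = 0.18, adjusted p = 0.24).

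No paralog ratio passed the test between CD28KO and WT libraries over the 3 populations. The CD28KO ratio was 0.980 times the WT ratio for Rpl22l1 (exact permutation p = 0.706), 0.917 times for Rps27l (p = 0.273) and 0.995 times for Rpl7l1 (p = 0.924), from 8000 exchanges. Without the 3 libraries with the most Mir5105, the calls for Rpl22l1 in tTreg against Tconv (adjusted p = 0.06), Rps27l in pTreg against Tconv (adjusted p = 0.12) and Rpl7l1 in tTreg against Tconv (adjusted p = 0.0514) were lost, by the same exact permutation test. The call for Rps27l in tTreg against pTreg was lost when any 1 of CD28KO tTreg 1 or 2, WT tTreg 2 or 3, CD28KO pTreg 2 or 3, or WT pTreg 3 was left out, with adjusted p from 0.0525 to 0.0825 (exact permutation). With each of the 12 libraries left out in turn, that difference ran from 0.26 to 0.40 on the log2 scale, against 0.33 with all of them. Fewer libraries allow fewer exchanges in these tests.

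**Figure D4:**
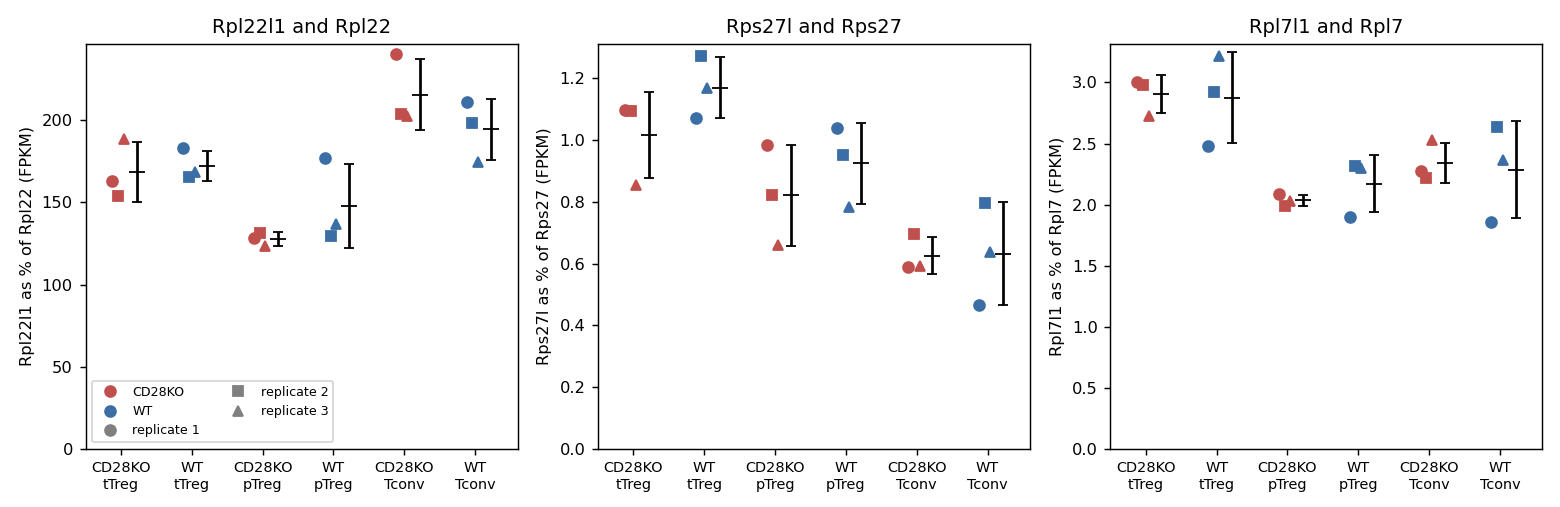
FPKM of Rpl22l1, Rps27l and Rpl7l1 as percent of Rpl22, Rps27 and Rpl7 in each library by group; points are libraries and bars give the mean and SD of 3 libraries. Rpl22l1 is lowest in pTreg (123.2% to 177%), while Rps27l and Rpl7l1 have their highest group means in tTreg.

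The members that departed most from the rest over the 18 libraries were Rpl39l, Rps27l, Rpl15, Rpl7l1, Rpl28 and Rpl31. Rpl39l lies near the floor, and its SD was 0.32 before the member median was subtracted and 0.43 after. For Rpl15 the departure followed the replicate number more than the group. It had 164, 200.1 and 223 FPKM in CD28KO tTreg, 205, 219 and 301 in WT tTreg, 175, 242 and 282 in CD28KO pTreg, 131, 246 and 284 in WT pTreg, 164, 195 and 240.3 in CD28KO Tconv, and 289, 234 and 298 in WT Tconv. The library numbered 1 was thus the lowest of its group in all groups but WT Tconv, and the one numbered 3 the highest in all. Rpl28 varied without such an order, from 864 FPKM in CD28KO tTreg 3 to 2562 in WT Tconv 1.

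Replicate number also went with the length of the coding sequence across the set. Coding lengths of the 81 members run from 138 to 1257 nt. After the group mean and the member median of each library were subtracted, the Spearman correlation of the remaining deviation with coding length was -0.40 to -0.62 in the 6 libraries numbered 1 and 0.45 to 0.68 in the 6 numbered 3. It was -0.21 to 0.33 in those numbered 2. Long members were thus relatively low in the libraries numbered 1 and relatively high in those numbered 3, in all 6 groups; within a group the deviations sum to 0, so the 3 numbers are not independent. In CD28KO pTreg 1 the median deviation of the 20 longest members was -0.12 and that of the 20 shortest 0.13. Each group holds 1 library of each number, so this pattern adds to the spread within groups, and the block takes up the mean of it.

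**Figure D5:**
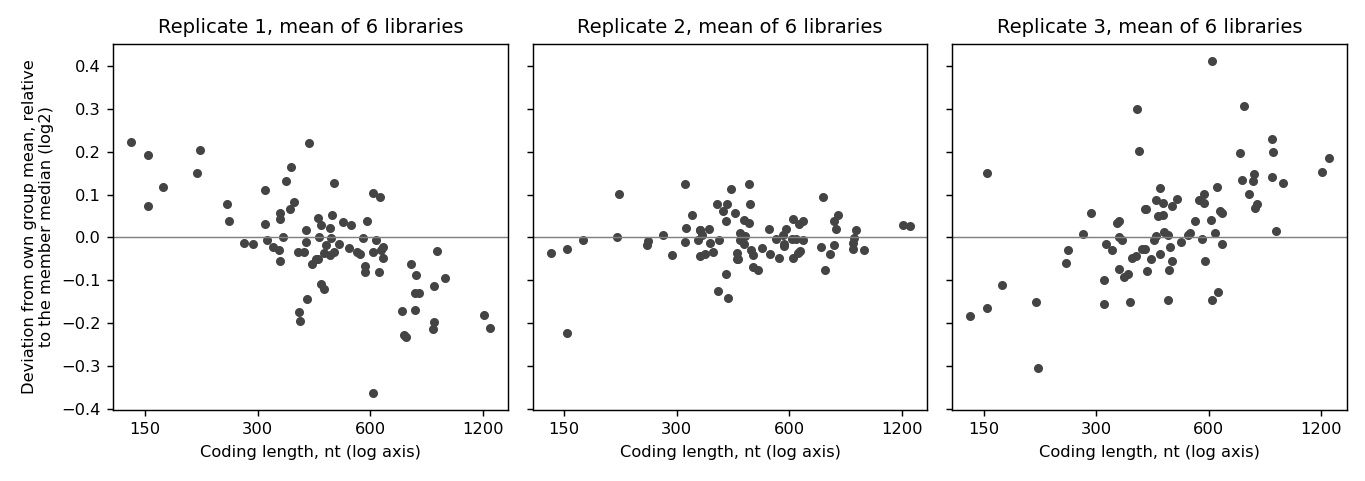
Deviation of each of the 81 members from its group mean, relative to the member median of the library, averaged over the 6 libraries of a replicate number (log2), against coding length in nt on a log axis. The points slope down for number 1 (Spearman -0.62), are flat for number 2 (0.03) and slope up for number 3 (0.58).

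Other genes of the translation machinery were read from lists of their own in the fit of all genes. In CD28KO against WT 0 genes of these lists were called by limma in all 3 populations, with at most 13 of a list (mitochondrial ribosomal proteins, Tconv) at an unadjusted p under 0.05. In CD28KO tTreg against CD28KO pTreg, elongation factors had a median difference of -0.29 (0 of 5 called by limma, 0 at an unadjusted p under 0.05), initiation factors -0.06 (0 of 30 called, 1 at an unadjusted p under 0.05) and mitochondrial ribosomal proteins -0.22 (0 of 76 called, 11 at an unadjusted p under 0.05). The median was -0.36 for host genes of small nucleolar RNAs (1 of 10 called lower), -0.16 for ribosome biogenesis (0 of 36 called, 4 at an unadjusted p under 0.05), -0.16 for RNA polymerase I, -0.12 for other terminal oligopyrimidine mRNAs and -0.060 for mTORC1 and its control (0 of 18 called, 1 at an unadjusted p under 0.05). All genes had a median of -0.03 in that comparison.

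Among the 36 ribosome biogenesis genes, Wdr12, a factor of large-subunit assembly, fell in WT tTreg against WT Tconv (-0.87 ± 0.21, adjusted p = 0.00960, limma), in CD28KO tTreg against CD28KO Tconv (-0.83 ± 0.21, adjusted p = 0.0136, limma) and in WT pTreg against WT Tconv (-0.91 ± 0.21, adjusted p = 0.0186, limma). It averaged 5.30 ± 0.865 FPKM in CD28KO tTreg and 10.2 ± 2.10 FPKM in CD28KO Tconv (SD, n = 3 each). Bysl, needed for small-subunit assembly, fell in WT tTreg against WT Tconv as well (-0.60 ± 0.18, adjusted p = 0.0335, limma). Of 10 host genes of small nucleolar RNAs, Snhg3, Snhg4 and Snhg8 fell in WT tTreg against WT Tconv (-1.12, -0.80 and -0.62; adjusted p = 0.0420, 0.0331 and 0.0274, limma), and Snhg7 fell in CD28KO tTreg against CD28KO pTreg (-0.88, adjusted p = 0.0374, limma) and against CD28KO Tconv (-0.72, adjusted p = 0.0496, limma). Snhg3 averaged 17.6 ± 5.50 FPKM in WT tTreg and 42.1 ± 22.7 FPKM in WT Tconv (SD, n = 3 each). Of 18 genes of mTORC1 and its control, Sesn2, an inhibitor of mTORC1 that senses leucine, rose in tTreg: it averaged 4.42 ± 0.606 FPKM in WT tTreg and 1.97 ± 0.734 FPKM in WT pTreg (0.89 ± 0.20, adjusted p = 0.0104, limma). It also rose in WT tTreg against WT Tconv (0.76 ± 0.20, adjusted p = 0.0135, limma) and in CD28KO tTreg against CD28KO Tconv (0.81 ± 0.20, adjusted p = 0.00886, limma). Of the mitochondrial ribosomal proteins, Mrps6 rose in tTreg against Tconv in both genotypes (0.71 in CD28KO and 0.63 in WT mice) and Mrps16 rose in CD28KO pTreg against CD28KO Tconv (0.72). The 14 genes of RNA polymerase I and 6 other terminal oligopyrimidine mRNAs had 0 called in all 9 comparisons by limma, with at most 1 at an unadjusted p under 0.05 in each.

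Calls of these other genes rest on the same libraries. Of all genes, 8.33% were called higher and 4.26% lower in WT tTreg against WT Tconv, and 9.63% higher and 2.47% lower in CD28KO tTreg against CD28KO Tconv. The shares were 4.44% higher in WT tTreg against WT pTreg, 2.44% lower in WT pTreg against WT Tconv, 0.946% lower in CD28KO tTreg against CD28KO pTreg and 4.8% higher in CD28KO pTreg against CD28KO Tconv. Without WT Tconv 1, Snhg3 (-0.72, adjusted p = 0.215, limma), Snhg4 (-0.79, adjusted p = 0.0790, limma), Snhg8 (-0.45, adjusted p = 0.119, limma) and Bysl (-0.38, adjusted p = 0.152, limma) were no longer called. Without the 3 libraries, Snhg3 (adjusted p = 0.0796, limma) and Snhg4 (adjusted p = 0.0677, limma) were not called, while Snhg7, Snhg8, Bysl, Wdr12, Sesn2, Mrps6 and Mrps16 were called in the comparisons named above. With each library left out in turn, Wdr12 in WT tTreg against WT Tconv was called every time, and each of the other calls was lost without at least 1 library of its own comparison.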

How the data were processed

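RNA-seq values of 18 libraries of sorted spleen T cells were used, 3 in each of 6 groups taken from the titles. Per the labels, total RNA was made into NEBNext Ultra libraries read as single reads of 50 nt. Trimmomatic 1, TopHat2 2.0.11 and Cufflinks, with the build GRCm38, are listed in the submitters' processing notes. The deposited values are FPKM per gene symbol, a unit read from the tool and the values, since the headers do not name it. Strand setting and annotation are not given in the sources used here. Low values did not fall on steps of whole reads, so depth is unknown and no counting error is given.

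Values were taken as log2(FPKM + 1) and fitted in limma 3.58.1 (R 4.3.3) with a variance trend and 1 mean per group over all 18 libraries (12 residual degrees of freedom), for genes at 1 FPKM or more in at least 3 libraries. A gene was called where its two-sided p, adjusted by Benjamini-Hochberg over all genes tested, was under 0.05. A fold change is on that scale and understates low genes. The code was tested on simulated data. Coding lengths are from GENCODE M21 (GRCm38). Ratios of paralogs were tested by exact permutation within genotypes or populations.

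The members, lists and tests were chosen with earlier results of these data known. Named members are the 6 highest and 4 lowest by mean, those failing the filter, paralog pairs, up to 3 called each way, and the 6 that vary most about the member median; Rps29, Rps16 and Rpl24 as examples, and the members named in the fits relative to the member median or without libraries, were chosen after their values were seen. Replicate numbers were taken as pairing libraries where same-numbered libraries correlated above 0.1 after group means were removed, for all 3 numbers. This held in 6 of 9 comparisons (not CD28KO against WT in tTreg or pTreg, nor WT pTreg against WT Tconv), and a block was run as an alternative in the limma fits. The others were a pseudocount of 0.1, no filter, rescaling without Mir5105, quantile normalization, and leaving out libraries, which for the genes of the other lists was added after the data were seen.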

Additional observations from a re-analysis of the deposited data

How the results depend on the processing

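Counts of called members moved with the scaling and with single libraries, and the counts below join both directions. For the fits with 1 library left out, the share of all genes called was not taken. WT tTreg against WT Tconv gave 3 calls, and 1 with no filter on low values, 13 with rescaling without Mir5105, 5 with quantile normalization, 8 without the 3 libraries with the most Mir5105, 6 relative to the member median, and 0 to 10 with 1 library left out (0 without WT Tconv 1, WT tTreg 1 or WT tTreg 2; 10 without WT pTreg 1; 8 and 9 without WT Tconv 2 or 3; 1 without most of the others). The 13, 5 and 8 calls were all lower in WT tTreg. The 6 relative to the median were all higher. Of all genes, 3.91% rescaled and 13.6% with quantile normalization were called lower there. CD28KO tTreg against CD28KO pTreg gave 0, and 4 rescaled, 64 without the 3 libraries, 1 relative to the median, and 0 to 25 with 1 library left out (25 without WT Tconv 1). The 4 and the 64 were lower in CD28KO tTreg (0.997% and 9.35% of all genes), and the 1 relative to the median was higher. CD28KO tTreg against CD28KO Tconv gave 0, and 9 rescaled, 9 with quantile normalization, 14 without the 3 libraries, 9 relative to the median, and 0 to 5 with 1 left out (5 without WT Tconv 1). The 9 rescaled and the 14 were all lower, where 3.57% and 5.32% of all genes were called lower. Those with quantile normalization were 4 higher and 5 lower, against 11.4% and 11.5% of all genes. Those relative to the median were 7 higher and 2 lower, against 13.5% and 1.08% of all genes. CD28KO pTreg against CD28KO Tconv gave 0, and 6 with quantile normalization, 11 without the 3 libraries, 5 relative to the median, and 0 to 7 with 1 left out (7 without WT Tconv 1). The 6 were 3 higher and 3 lower (5.94% and 4.32% of all genes). The 11 were all higher, and the 5 were 2 higher and 3 lower. WT pTreg against WT Tconv gave 0, and 2 rescaled, 2 with quantile normalization, 1 without the 3 libraries, 1 relative to the median, and 0 to 1 with 1 left out (1 without WT Tconv 2). The 2 rescaled were lower (1.99% of all genes), and those with quantile normalization were 1 higher and 1 lower (5.27% and 5%). WT tTreg against WT pTreg gave 0, and 6 without the 3 libraries (all lower) and 1 relative to the median (higher). With the replicate block, CD28KO tTreg against CD28KO pTreg, WT pTreg against WT Tconv (Rpl31, where the numbers do not pair the libraries) and CD28KO pTreg against CD28KO Tconv gave 1 each. The block left the CD28KO against WT counts at 0, as did all alternatives run. After group means were removed, the best correlated library of the other groups carried the same number for 17 of 18 libraries. The cause was not tested.

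The median difference in CD28KO against WT Tconv was -0.14 rescaled, -0.11 with quantile normalization and -0.11 without the 3 libraries, and -0.61 to -0.18 with 1 left out. In CD28KO tTreg against CD28KO pTreg it was -0.094 with quantile normalization, which draws the top ranks, where the members lie, to common values. In WT tTreg against WT Tconv it was -0.040 with quantile normalization, -0.13 without the 3 libraries and -0.56 to -0.13 with 1 left out. In WT pTreg against WT Tconv it turned to 0.16 without the 3 libraries and ran from -0.43 to 0.015 with 1 left out. With Mir5105 in the sum, the summed share was 19.6% in CD28KO tTreg, 22.7% in WT pTreg and 20.02% in CD28KO Tconv. The log2 difference of CD28KO and WT turned to 0.051 for Rpl22l1 over Rpl22 without the 3 libraries, and ran from -0.059 to 0.016 for that ratio and from -0.055 to 0.030 for Rpl7l1 over Rpl7 with 1 left out. Relative to the member median, counts with 1 left out ran from 0 to 8 (WT tTreg against Tconv), 3 to 15 (CD28KO tTreg against Tconv) and 0 to 5 (CD28KO pTreg against Tconv). Depth is unknown, so the precision of low paralogs such as Rpl39l cannot be given.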
